A study of Mus musculus with 12 samples.

Results

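Cholesterol synthesis and its control were followed across mouse lung through 28 genes: the enzymes that turn acetyl-CoA into cholesterol, the proteins that sense sterols and steer this pathway, and a few that carry sterols, export them or set the turnover of the receptor for low-density lipoprotein. The genes were listed by name and function, with earlier results of these data known. A probe set, a group of short probes on the array that together report 1 transcript, was found for 27 of the 28. These 27 were tested among 11602 genes in all. The member without one is Acat2, an acetyl-CoA acetyltransferase at the head of the pathway, for which the annotation used gave no probe set of its own. Where a gene had several probe sets, the one with the highest mean over the 12 arrays stood for it.

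Cells make cholesterol through mevalonate, whose branch point products also serve to attach lipid anchors to proteins. When sterols run low, Scap escorts the membrane-bound SREBP proteins, encoded by Srebf1 and Srebf2, to the Golgi, where they are cut and released to switch on the enzymes. Insig1 and Insig2 hold this escort back when sterols are ample, and oxysterols instead activate LXR, which raises export pumps such as Abca1 and Abcg1. Simvastatin is a statin: it blocks HMG-CoA reductase, an early step of this pathway, and in liver and cultured cells statins are known to raise SREBP targets. In the lung the pathway also supplies sterol to surfactant-making epithelium and to macrophages, which must export what they take up.

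RNA from lungs of wild-type mice was measured on 12 Affymetrix arrays in 4 groups of 3. The control group received vehicle. The radiation group was taken 6 weeks after a single dose of 25 Gy. The simvastatin group was given 10 mg/kg into the peritoneum, 3 injections a week, over a course timed around irradiation, though no irradiation is labelled for it. The group called combined here received the same injections and the same 25 Gy, also with 6 weeks between dose and sampling. The controls are labelled as 8 to 10 weeks old and the animals of all other groups as 8 to 12 weeks, so age and treatment cannot be told apart in any comparison with controls. The labels name neither the strain nor how many animals stand behind an array, so p-values measure only the spread between these samples, which may be technical.

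Several arrays limit what follows. Simvastatin 1 and simvastatin 3 were nearly identical: their log2 values differed with an SD of 0.118, whereas the 63 pairs that do not fall within a trio formed with combined 3 all reached at least 0.336. Their mean was counted as 1 sample, so the simvastatin group stands on 2 samples and the fit on 11. Combined 3 lay as close to them, at 0.111 and 0.114, although its label differs, and it was kept as labelled. The trio thus enters the fit as 2 samples under different labels. Standard errors and intervals treat these as independent, also where simvastatin is averaged over both radiation states. Cdkn1a, a p53 target that radiation is known to raise, read 13.1 to 13.4 on the other irradiated arrays but 11.2 on combined 3, and it read 13.0 on control 3 and 13.4 on simvastatin 2 against 10.2 to 11.1 on the other unirradiated arrays. The libraries labelled control 3, combined 3 and simvastatin 2 therefore go against their labels, and results are given with and without them where they differ. The lung markers Sftpb, of alveolar type 2 cells, Ager, of type 1 cells, and Scgb1a1, of club cells, were high on all 12 arrays, at 12.2 or more. Marker sets of brown fat, skeletal muscle and squamous epithelium differed widely between arrays. Each set was taken as the median, over its genes, of the deviation from each gene's average. Squamous markers ran from -4.96 on simvastatin 2 to 7.32 on combined 2, and skeletal muscle markers from -4.08 to 4.20. Control 1 also stood apart: Rag1, a gene of developing lymphocytes in the thymus, read 14.42 there and 11.05 on combined 1 against 2.09 to 2.33 on the other 10 arrays. On control 1 the markers of alveolar type 1 cells were at -1.01 and those of endothelium at -0.89, the lowest of all arrays.

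The promoters were searched for sequences through which this pathway is known to be controlled. RefSeq promoter entries on GRCm38.p6, 300 bases reaching from 250 before to 50 after the start of transcription, were found for 23 of the 28 members, Acat2 included. The letters searched, on both strands, were TCACNCCAC for a sterol regulatory element that SREBP binds, its core of 7 letters, which is the same pattern without its first and last letter, and CCAAT for the factor NF-Y that works beside SREBP. The longer pattern occurred in 1 of the 23, Hmgcs1, against 1.44% of 27025 genes with an entry. The core, searched after the longer pattern had matched a single member, occurred in 6 of 23 members, 26.1%, against 20.56% of all genes. CCAAT occurred in 20 of 23, 87.0%, against 41.06% of all genes and 42.43% of the tested genes. A match is a run of letters, not a shown binding site, and a missing match says only that these letters are absent from this window. Windows are printed for genes that serve as readouts of SREBP in this pathway, 5′ to 3′ along the gene, with the SREBP pattern and any CCAAT next to it in capitals, in the reverse complement where the match is on the other strand. They lie at chr13:119690164-119690272 on the plus strand for Hmgcs1, chr15:82147058-82147164 on the plus strand for Srebf2, chr5:28071354-28071411 on the plus strand for Insig1 and chr8:64733698-64733804 on the minus strand for Msmo1, all upstream of the start of transcription.
Hmgcs1: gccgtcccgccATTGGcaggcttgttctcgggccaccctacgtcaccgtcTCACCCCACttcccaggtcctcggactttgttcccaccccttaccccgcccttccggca
Srebf2: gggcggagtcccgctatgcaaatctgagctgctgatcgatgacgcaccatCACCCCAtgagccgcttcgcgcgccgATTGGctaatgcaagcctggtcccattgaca
Insig1: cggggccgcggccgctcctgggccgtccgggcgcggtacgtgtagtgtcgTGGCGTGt
Msmo1: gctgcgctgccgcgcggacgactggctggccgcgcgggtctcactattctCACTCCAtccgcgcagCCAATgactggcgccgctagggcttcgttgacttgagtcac

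The members varied about as much between samples as other genes did. Over the 11 samples the median SD of a member was 0.33 on the log2 scale, against 0.35 over all genes, and 16 of 27 members lay below that figure. Srebf2 was among the steadiest genes measured, with an SD of 0.10 that only 1.55% of genes undercut, and Scap, its escort, followed at 0.12. Fdps, Pmvk and Dhcr7 varied the most among members, with SDs of 0.80, 0.73 and 0.59. The heat map shows these genes as the strongest bands of colour.

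**Figure D1:**
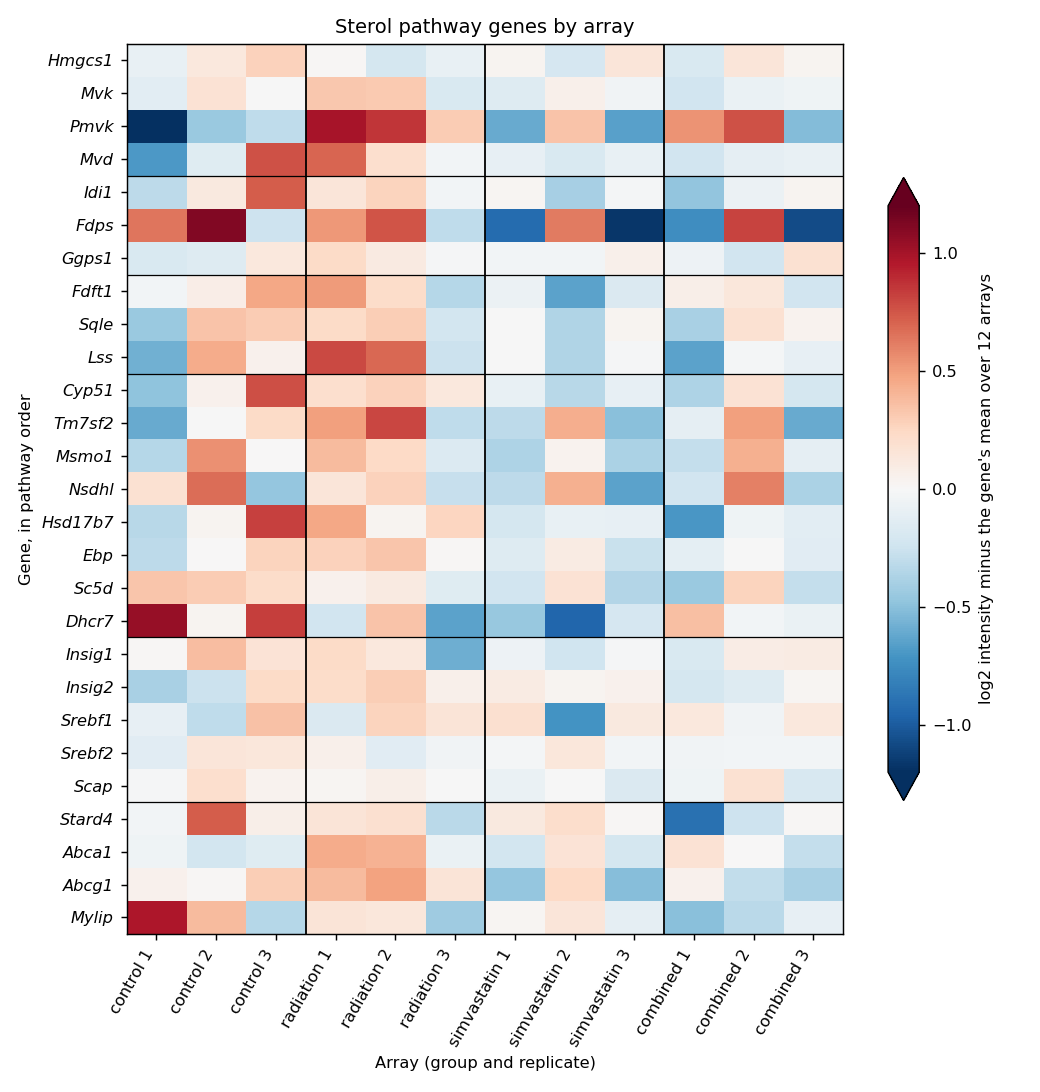
Deviation of each of the 27 measured members from its own mean over 12 arrays, in log2 intensity, with arrays in columns by group and genes in rows in pathway order; horizontal lines part the roles and vertical lines the groups, and colours saturate at the ends of the bar. Pmvk, Fdps, Dhcr7 and Mylip hold the deepest colours, while the rows of Srebf2 and Scap are nearly blank.

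No gene of the 11602 passed an adjusted p of 0.05 in any of 6 comparisons tested with limma, so 0% of all genes and 0 of 27 members were called. At an unadjusted p under 0.05, 600 genes were found for radiation against control, 214 for simvastatin against control, 518 for combined against radiation, 322 for simvastatin averaged over both radiation states, 151 for radiation averaged over both simvastatin states and 377 for the interaction. The members among them numbered 2, 1, 1, 1, 1 and 1. Each difference below is therefore a value with its standard error that did not pass the test. A missed threshold does not show that a gene stayed level, and the 95% intervals, unadjusted, say how large a change the arrays could have hidden. With simvastatin averaged over both states, 24 of 27 members had an interval inside 1 log2 unit either way, against 77.8% of all genes.

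The early enzymes make and activate mevalonate. Hmgcs1, which makes HMG-CoA and is a standard SREBP target, measured 12.91, 13.12 and 13.27 on the control arrays, 13.01, 12.78 and 12.91 after radiation, 13.03, 12.80 and 13.14 with simvastatin and 12.81, 13.14 and 13.03 in the combined group. All groups overlapped on this probe set, the brightest. With simvastatin, it differed by -0.03 ± 0.11 (SE) averaged over both radiation states, with a 95% interval from -0.28 to 0.21. The 4 brighter probe sets of Hmgcs1 gave -0.27 to -0.01 there, and the dimmest, away from the others, gave 0.59 ± 0.35. That probe set was low on the radiation arrays, at 4.91, 4.50 and 5.89, against 6.41, 7.14 and 6.27 on the controls, and it gave 1.42 ± 0.47 in combined against radiation, with an adjusted p of 0.657 over probe sets. There 3 of the 4 brighter probe sets gave 0.09 to 0.10 and the other gave -0.03. This other probe set read 10.66, 11.03 and 10.72 on the controls. It lay below them after radiation, at 10.60, 10.28 and 10.24, and with simvastatin, at 10.11, 10.39 and 10.25. It gave -0.43 ± 0.22 for radiation against control and -0.52 ± 0.25 for simvastatin against control, adjusted p of 0.747 and 0.999 over probe sets.

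Pmvk, the kinase that adds the second phosphate to mevalonate, set the radiation arrays apart from the controls more than any other member. It measured 8.14, 8.96 and 9.11 on the control arrays and 10.40, 10.27 and 9.72 after radiation, with no overlap. The simvastatin arrays read 8.81, 9.75 and 8.77, and the combined arrays read 9.95, 10.17 and 8.89. Within the simvastatin and combined groups the array that stands apart, simvastatin 2 and combined 3, is one that goes against its label. Control 3, which also goes against its label, did not stand apart: it read 9.11, near control 2 at 8.96 and below all radiation arrays. The difference for radiation against control was 1.39 ± 0.41, with an adjusted p of 0.751 and an unadjusted limma p of 0.00744. Without the 3 arrays against their labels it was 1.58 ± 0.32. Those arrays were picked by Cdkn1a in these same data, so leaving them out favours differences by radiation. Averaged over both simvastatin states, radiation went with 0.90 ± 0.31 more Pmvk, adjusted p of 0.999.

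Mvk and Mvd, the enzymes before and after Pmvk, gave smaller differences. Mvk ranged from 5.81 to 6.36 over all arrays and differed by 0.14 ± 0.24 for radiation against control. Mvd lay at 5.14, 5.68 and 6.59 on the controls, a wider spread than in any other group, and between 5.60 and 5.74 on all simvastatin and combined arrays. Its difference for combined against radiation was -0.43 ± 0.37, and the combined arrays all lay below the radiation arrays, which read 6.53, 6.03 and 5.80.

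Next come the isoprenoid diphosphates. Idi1, an isomerase, measured 10.85, 11.28 and 11.89 on the controls and 11.18, 10.76 and 11.14 with simvastatin, a difference of -0.38 ± 0.29. Ggps1 makes the geranylgeranyl group used to anchor small GTPases. Its brightest probe set stayed between 10.66 and 11.11 on all arrays and differed by -0.04 ± 0.12 with simvastatin averaged over both states. The dimmer ones gave -0.245 ± 0.20, -0.08 ± 0.15 and -0.46 ± 0.30 there, and the dimmest ranged from 5.60 to 7.10.

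Fdps, the synthase of farnesyl diphosphate at the branch point, spread over 2.28 log2 units. It measured 10.30, 10.77 and 9.40 on the controls, 10.18, 10.41 and 9.35 after radiation, 8.73, 10.28 and 8.49 with simvastatin and 8.91, 10.47 and 8.58 in the combined group. Every group held both high and low arrays. Its mean difference with simvastatin averaged over both states, -0.69 ± 0.45, was the most negative of any member, with an interval from -1.70 to 0.33. Fdps is set against a measure of RNA quality further on.

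Squalene is then made and closed into rings. Fdft1, squalene synthase, read 10.73, 10.84 and 11.22 on the controls and 10.69, 10.12 and 10.59 with simvastatin, so these groups did not overlap. The difference was -0.55 ± 0.28, adjusted p of 0.99, and simvastatin averaged over both states gave -0.34 ± 0.19. The difference from control was -0.14 ± 0.35 without the 3 arrays against their labels, where 1 simvastatin sample remained and is assumed to vary like the other groups. Sqle, squalene epoxidase and a rate-limiting SREBP target, read 9.17, 9.95 and 9.92 on the controls, 9.84, 9.91 and 9.40 after radiation, 9.61, 9.25 and 9.64 with simvastatin and 9.23, 9.79 and 9.65 in the combined group. All groups overlapped, and simvastatin averaged over both states gave -0.20 ± 0.20, interval -0.65 to 0.25.

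Lss, which closes the ring to lanosterol, measured 8.34, 8.24 and 7.29 after radiation and 6.91, 7.52 and 7.45 in the combined group, a difference of -0.66 ± 0.36. The controls, at 6.97, 7.99 and 7.59, spanned both groups. A second probe set of Lss, about as bright, gave -0.20 ± 0.38 for the same comparison. In an alternative fit that weights arrays by their fit, Lss was -0.94 with an adjusted p of 0.044. That fit weighted radiation 1, 2 and 3 by 2.92, 1.71 and 0.53 and combined 1, 2 and 3 by 2.07, 2.19 and 0.64. Among the controls it gave control 2 a weight of 3.54, control 1 a weight of 0.16 and control 3 a weight of 0.30.

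In this set 8 members act from lanosterol to cholesterol, and with simvastatin averaged over both radiation states all 8 lay below 0, with a median of -0.22. Of all genes 39.6% lay above 0 in this comparison, with a median of -0.05. Dhcr7, which carries out the last step of one branch, differed most. It measured 8.11, 7.10 and 7.89 on the controls, 6.83, 7.40 and 6.42 after radiation, 6.61, 6.11 and 6.86 with simvastatin and 7.42, 7.03 and 6.98 in the combined group. No simvastatin array reached the lowest control, while the combined and radiation groups overlapped.

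Simvastatin against control gave -1.28 ± 0.39 for Dhcr7, with an adjusted p of 0.99 and an unadjusted limma p of 0.00929. Radiation against control gave -0.82 ± 0.35, with an adjusted p of 0.751 and an unadjusted limma p of 0.0443, and these groups overlapped. Combined against radiation gave 0.26 ± 0.35, in the opposite direction, and simvastatin averaged over both states gave -0.51 ± 0.26. The interaction, which asks whether simvastatin differed between irradiated and unirradiated lungs, was 1.54 ± 0.53, with an adjusted p of 0.882 and an interval from 0.35 to 2.73. Without the 3 arrays against their labels, simvastatin against control was -0.87 ± 0.57, and 1 simvastatin sample remained.

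Sc5d, a desaturase 1 step earlier, read 10.10, 10.06 and 9.98 on the controls, above all radiation arrays at 9.82, 9.88 and 9.62 and all simvastatin arrays at 9.53, 9.94 and 9.41. Its differences from control were small, -0.28 ± 0.21 for radiation and -0.34 ± 0.24 for simvastatin. Combined 2, at 10.03, lay among the controls, and combined 1 and 3, at 9.32 and 9.48, lay below them. On a dimmer probe set of Sc5d the radiation arrays, at 9.53, 9.26 and 8.67, overlapped the controls, at 8.77, 9.40 and 9.31. So did the simvastatin arrays, at 8.64, 9.03 and 8.45. The differences from control there were -0.0081 ± 0.30 for radiation and -0.37 ± 0.33 for simvastatin.

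Cyp51, the demethylase of lanosterol, read 8.91, 9.45 and 10.17 on the controls and 9.31, 9.07 and 9.30 with simvastatin, within the range of the controls. Simvastatin against control gave -0.33 ± 0.33, and simvastatin averaged over both radiation states gave -0.33 ± 0.22. A dimmer probe set of Cyp51 read 7.43, 7.69 and 8.09 on the controls and 7.16, 7.25 and 7.04 with simvastatin, without overlap. It gave -0.56 ± 0.31 for simvastatin against control, adjusted p of 0.999 over probe sets, and -0.36 ± 0.21 in the average. Hsd17b7, a ketoreductase, lay between 7.20 and 7.84 in the combined group and between 7.93 and 8.36 after radiation, a difference of -0.54 ± 0.31. Ebp, an isomerase, lay between 10.55 and 10.68 in the combined group and between 10.69 and 11.01 after radiation, a difference of -0.29 ± 0.18. Both pairs of groups were apart by small margins.

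Tm7sf2, Msmo1 and Nsdhl, which reduce or demethylate sterol intermediates, differed by -0.13 ± 0.31, -0.19 ± 0.21 and -0.10 ± 0.28 with simvastatin averaged over both states. Their groups overlapped in the comparisons of simvastatin with control and of combined with radiation.

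Of the sensing genes, Srebf2 and Scap varied least of all members, while Insig2, Insig1 and Srebf1 had SDs of 0.22, 0.26 and 0.30. Srebf2, the main SREBP of cholesterol synthesis, measured 9.01, 9.29 and 9.28 on the controls, 9.21, 9.01 and 9.11 after radiation, 9.12, 9.27 and 9.11 with simvastatin and 9.10, 9.11 and 9.11 in the combined group. Simvastatin averaged over both states gave 0.00 ± 0.11, with an interval from -0.25 to 0.26. Its other probe set gave -0.21 ± 0.16 and was less steady, with an SD of 0.24 over the 12 arrays against 0.10.

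Insig1, a sterol sensor and a fast SREBP target, read 9.73, 10.08 and 9.88 on the controls and 9.65, 9.48 and 9.70 with simvastatin, so these groups did not overlap although the gap was narrow. The difference was -0.32 ± 0.26, adjusted p of 0.99. Radiation 3, at 9.12, was its lowest array, against 9.95 and 9.85 on the other radiation arrays. The combined arrays read 9.54, 9.80 and 9.81, and combined against radiation gave 0.08 ± 0.23.

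Insig2, its relative, read 11.12, 11.19 and 10.96 after radiation and 10.68, 10.74 and 10.91 in the combined group, with no overlap and a difference of -0.31 ± 0.18, adjusted p of 0.835. The controls read 10.51, 10.64 and 11.13, the last being control 3. With array weights the combined difference was -0.39, adjusted p of 0.044, in a fit that called 1172 genes for this comparison. Its 3 probe sets agreed in sign here, at -0.31, -0.32 and -0.61.

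Srebf1, whose product also drives fatty acid synthesis, read 10.90, 9.99 and 10.83 with simvastatin, and simvastatin 2 was its lowest array of all. The combined arrays lay between 10.67 and 10.83, and combined against radiation gave -0.01 ± 0.25. Scap differed by -0.10 ± 0.11 with simvastatin averaged over both states, interval -0.34 to 0.14.

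The export pumps are LXR targets. Abcg1, which passes cholesterol to high-density lipoprotein and is prominent in alveolar macrophages, read 11.60, 11.70 and 11.38 after radiation and 11.27, 10.92 and 10.83 in the combined group, with no overlap. It read 11.27, 11.24 and 11.52 on the controls and 10.76, 11.46 and 10.71 with simvastatin. Simvastatin 1 and 3 and combined 3, the near-identical trio, were its lowest 3 arrays on this probe set. On a dimmer probe set control 1, at 6.39, was lowest, and combined against radiation gave -0.86 ± 0.34, again without overlap. Simvastatin against control gave 0.09 ± 0.39 on the dimmer probe set and -0.25 ± 0.23 on the brighter one. Averaged over both radiation states, simvastatin gave -0.39 ± 0.26 on the dimmer one.

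Combined against radiation gave -0.55 ± 0.21 for Abcg1, adjusted p of 0.835 and unadjusted limma p of 0.0259, and -0.46 ± 0.18 without the 3 arrays against their labels. Simvastatin averaged over both states gave -0.40 ± 0.16, with an interval from -0.75 to -0.05 and an adjusted p of 0.989. That interval treats the samples of the near-identical trio as independent. Macrophage markers were taken as the median deviation over the 6 of 6 genes measured. They were -0.26, 0.36 and -0.32 with simvastatin and 0.68, 0.06 and -0.35 in the combined group. After radiation they were 0.62, 0.26 and -0.16, and on the controls -0.60, 0.08 and -0.05. In whole lung, fewer cells of a type and less RNA per cell cannot be told apart, and the part of macrophages in the Abcg1 values was not tested. Marco, a receptor of alveolar macrophages, ranged from 2.10 to 8.09 over the arrays.

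Abca1, which passes cholesterol to lipid-poor apolipoproteins, read 11.97, 11.80 and 11.87 on the controls and 12.47, 12.44 and 11.94 after radiation. Radiation 3 lay among the controls. The simvastatin arrays read 11.80, 12.18 and 11.81 and the combined arrays 12.20, 12.03 and 11.74. Radiation against control gave 0.40 ± 0.19, adjusted p of 0.751. Its dimmer probe sets gave 0.48 ± 0.62 and 0.75 ± 0.64. With array weights Abca1 was 0.59, adjusted p of 0.0345, in a fit that called 1241 genes for this comparison. That fit weighted control 2, the lowest control here, by 3.54 and radiation 3 by 0.53.

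Stard4, a carrier of sterol between membranes, was lowest on combined 1, at 9.0, and highest on control 2, at 10.63. Radiation averaged over both simvastatin states gave -0.38 ± 0.21. Mylip, a ubiquitin ligase that degrades the receptor for low-density lipoprotein and is itself an LXR target, read 11.60, 11.02 and 10.29 on the controls and lay between 10.13 and 10.79 on the other groups' arrays. Its difference for radiation averaged over both states was -0.37 ± 0.23.

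**Figure D2:**
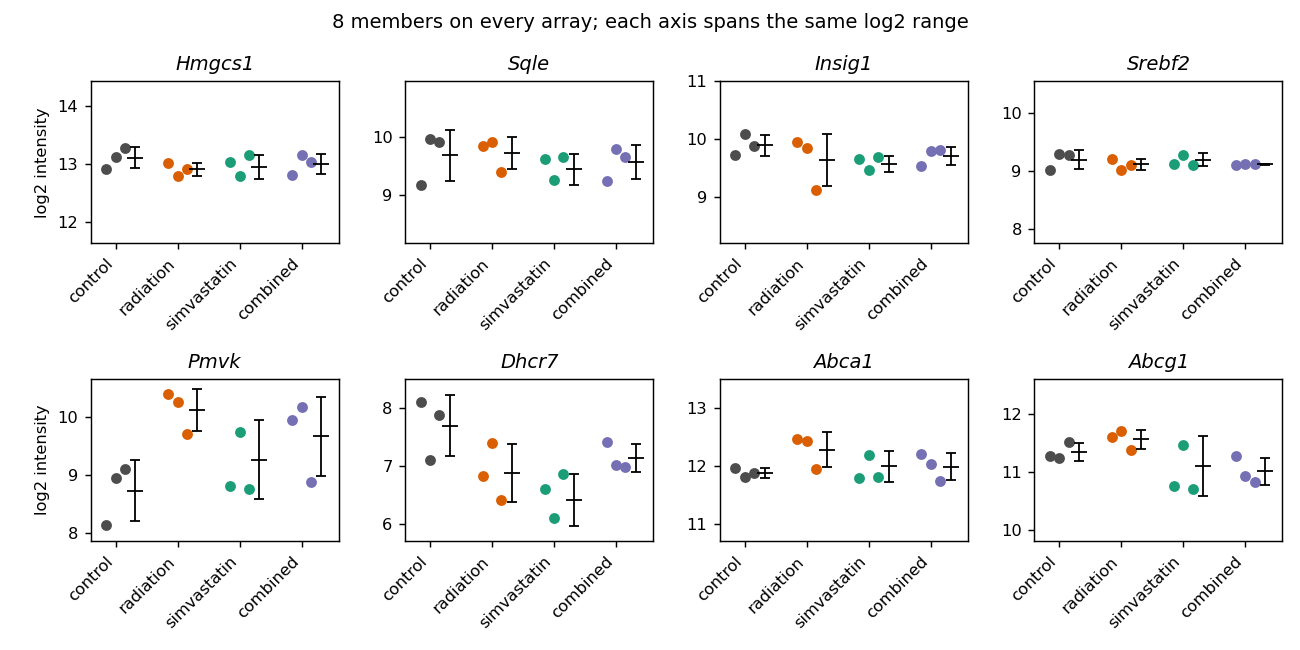
Log2 intensity of 8 members on every array, by group; black dashes and bars beside the points give the group mean ± SD, with n = 3 samples except simvastatin, where arrays 1 and 3 were averaged and n = 2, and all axes span the same log2 range. Hmgcs1 and Srebf2 lie nearly flat across the groups, Pmvk is higher after radiation than on the controls without overlap, and Dhcr7 is lower with simvastatin than on the controls without overlap.

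For the genes named in every comparison, the remaining values were also small. Hmgcs1 gave -0.20 ± 0.14 for radiation against control, -0.16 ± 0.16 for simvastatin against control and 0.09 ± 0.14 for combined against radiation. Sqle gave 0.04 ± 0.27, -0.24 ± 0.30 and -0.16 ± 0.27 in these comparisons, and Srebf2 gave -0.08 ± 0.15, 0.0021 ± 0.17 and 0.00 ± 0.15. Insig1 gave -0.26 ± 0.23 for radiation against control. Abca1 gave 0.11 ± 0.21 for simvastatin against control and -0.29 ± 0.19 for combined against radiation. In the interaction these 5 lay between -0.41 for Abca1 and 0.40 for Insig1, with an adjusted p of 0.882 or more. Pmvk and Insig2, next to Dhcr7 in the order of p there, gave -0.99 ± 0.62 and -0.50 ± 0.26, each with an adjusted p of 0.882.

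Set side by side, the members leaned low with simvastatin. Averaged over both radiation states, 25 of 27 lay below 0 with a median of -0.19, while 39.6% of all genes lay above 0 and their median was -0.05. Simvastatin against control had 21 of 27 below 0 and a median of -0.16, against -0.0023 over all genes, of which 49.6% lay above 0. Of 13 members with several probe sets tested, 8 had the same sign on all of them there. In the average 11 of 13 did, and in combined against radiation also 11 of 13. Combined against radiation had 23 of 27 below 0 and a median of -0.27, against -0.09 over all genes, of which 37.4% lay above 0. The exceptions in the average, Pmvk at 0.04 and Srebf2 at 0.00, were close to 0. These are counts over genes of the same arrays and carry no test. They use overlapping samples and so are not separate evidence.

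Without the 3 arrays against their labels fewer members lay below 0. In simvastatin against control, with 1 simvastatin sample left, 17 of 27 members then lay below 0, with a median of -0.08 against 0.09 over all genes. In the average over both states 23 of 27 did, with a median of -0.12 against -0.0008. All genes moved the same way. The share of them above 0 was 57.6% in simvastatin against control, where it was 49.6% with these arrays. In the average it was 49.9%, where it was 39.6% with them.

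Counted by overlap between groups, on the probe set that stands for each gene, few members stood apart, at shares not far from the background. Other probe sets of a gene could differ, as those of Sc5d did. In simvastatin against control, 4 of 27 members, 14.8%, lay wholly below the controls (Fdft1, Sc5d, Dhcr7 and Insig1), against 7.96% of all genes, and none lay wholly above, against 3.36%. In combined against radiation, 5 members, 18.5%, lay wholly below (Mvd, Hsd17b7, Ebp, Insig2 and Abcg1), against 13.5% of all genes, and none above, against 3.7%. No member was in both of these lists.

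In radiation against control, Pmvk lay wholly above, against 4.86% of all genes, and Sc5d wholly below, against 2.03%. When all arrays with simvastatin were set against all without it, no member was apart in either direction, against 0.0431% of genes above and 0.319% below. When all irradiated arrays were set against all unirradiated ones none was either, against 0.0948% above and 0.00862% below.

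**Figure D3:**
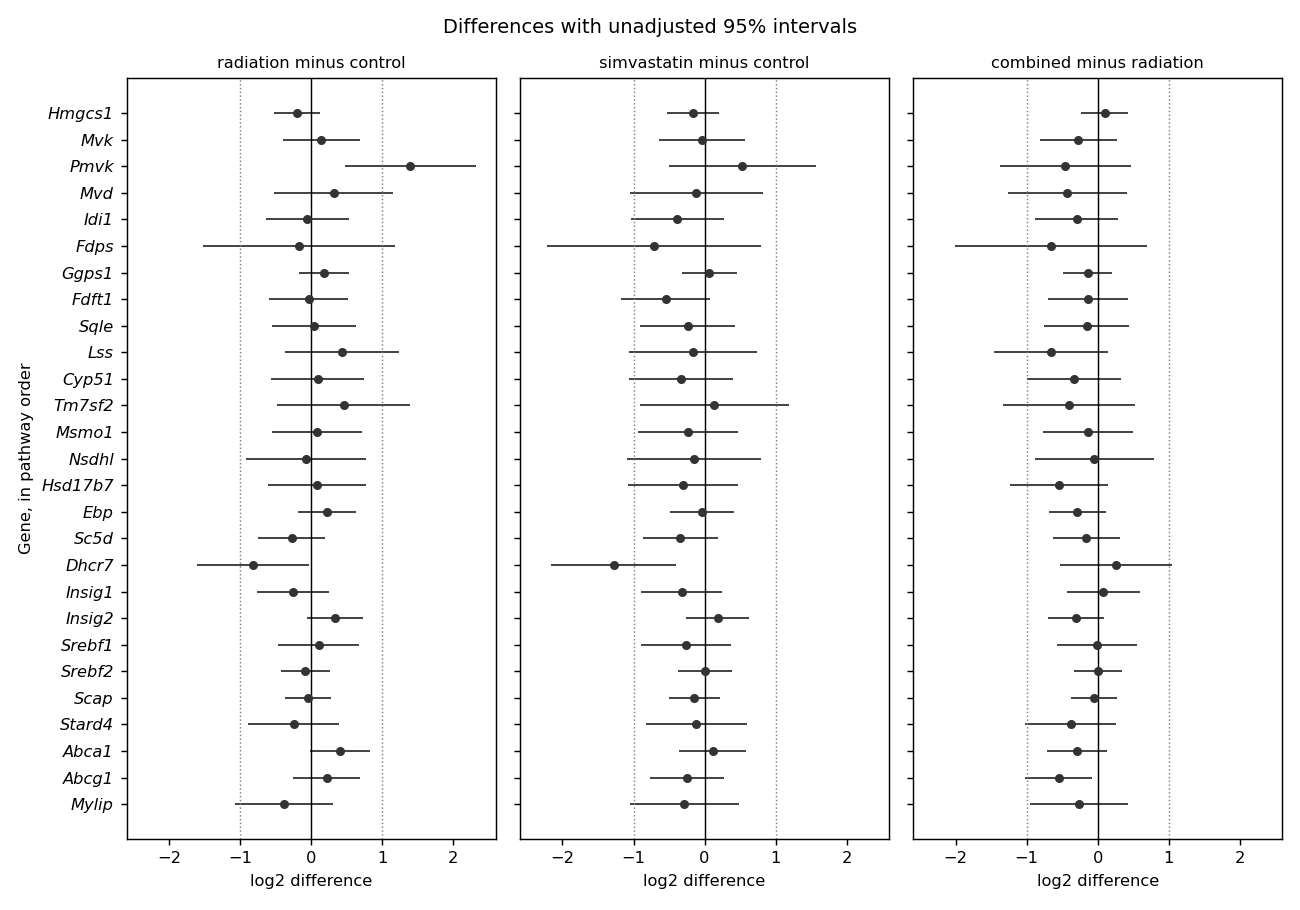
Log2 difference of the 27 measured members in 3 comparisons, with unadjusted 95% intervals from limma; the solid line marks 0 and the dotted lines 1 log2 unit either way. Most intervals cross 0; those of Pmvk and Dhcr7 for radiation against control, of Dhcr7 for simvastatin against control and of Abcg1 for combined against radiation do not, and none passed the adjusted test.

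Leaving out the 3 arrays changed these counts, with smaller groups in which gaps are also more common in all genes. In radiation against control 8 members then lay wholly above (Pmvk, Mvd, Ggps1, Cyp51, Hsd17b7, Ebp, Insig2 and Abcg1), against 25.8% of all genes, and Sc5d and Mylip wholly below, against 9.14%. In simvastatin against control, with 1 simvastatin sample left, 10 lay below, 37%, against 26.2% of all genes, and 4 above, against 38.3%. In combined against radiation 7 lay below, 25.9%, against 27.5% of all genes, and none above, against 11.1%.

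With each array centred on its median, the counts also differed. In radiation against control 1 member then lay wholly above, against 4.82% of all genes, and none below, against 0.334%. In simvastatin against control 1 lay below, against 5.38%, and none above, against 1.98%. In combined against radiation 8 lay below, 29.6%, against 35.9% of all genes, and none above, against 0.728%.

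With array weights, control 1, 2 and 3 counted by 0.16, 3.54 and 0.30, so the control mean rested mostly on control 2. In that fit limma called 1241 genes for radiation against control, 7.66% of all genes upward and 3.03% downward. Pmvk, Insig2 and Abca1 were among those higher, and no member was lower. For combined against radiation it called 1172 genes, 3.41% upward and 6.69% downward, with Lss and Insig2 among those lower and no member higher. In the other 4 comparisons it called none.

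For radiation the middle of the set lay near the middle of all genes. The members' median was 0.08 for radiation against control, against 0.08 over all genes, with 15 above 0 and 12 below. Without control 1 the median was -0.09. Control 1 was the lowest control for Pmvk, Mvd and Lss and the highest for Mylip, and without it these gave 1.09 ± 0.42, -0.02 ± 0.34, 0.16 ± 0.35 and -0.07 ± 0.26 for radiation against control. Radiation averaged over both simvastatin states gave 0.06 against 0.05. In the interaction the members' median was -0.0021 against -0.09, with 13 above 0 and 14 below, and 9 of 27 members had an interval inside 1 log2 unit either way, against 31.2% of all genes.

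A measure of RNA quality moved with some members. Affymetrix arrays carry beta-actin probe sets at both ends of the transcript, and the 3′ signal exceeds the 5′ signal more when RNA is less intact or less fully copied. The log2 difference was 1.50 to 1.58 on 5 arrays, control 3, radiation 3, combined 3, simvastatin 1 and simvastatin 3, and 0.96 to 1.22 on the other 7. Each group holds at least 1 array of either kind, and 2 of the 3 simvastatin arrays were of the wide kind. The array numbered 3 in every group was among the 5.

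Nsdhl read 8.47 to 8.83 on the 5 wide arrays and 8.88 to 9.78 on the others, with no overlap. It was the only member whose wide arrays all lay below the others, against 1.21% of all genes, and none lay wholly above, against 3.34%. Fdps came close, at 8.49 to 9.40 against 8.91 to 10.77. Within the wide arrays Fdps read 9.40 on the control and 9.35 on the radiation array, against 8.73, 8.49 and 8.58 on simvastatin 1, simvastatin 3 and combined 3, which are the near-identical trio. Within the others it read 10.28 on simvastatin 2 and 10.47 on combined 2, among the 10.18 to 10.77 of the arrays without simvastatin, and 8.91 on combined 1.

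The probe sets of Abca1 differed in the same respect. Its second brightest probe set read 7.15 to 8.17 on the 5 wide arrays and 8.15 to 9.38 on the others, while the brightest, which stands for the gene here, read 11.74 to 11.94 and 11.80 to 12.47. Hmgcs1 showed no such division, at 12.91 to 13.27 and 12.78 to 13.14. With the beta-actin difference as a covariate, added after the data were seen, Dhcr7 for simvastatin against control was -1.28, Pmvk for radiation against control 1.48 and Abcg1 for combined against radiation -0.56, against -1.28, 1.39 and -0.55 without it. Fdps, with simvastatin averaged over both states, was -0.53 ± 0.22 with the covariate against -0.69 ± 0.45 without it, adjusted p of 0.98, and Nsdhl was -0.01 ± 0.16 against -0.10 ± 0.28. The members' median moved from 0.08 to 0.03 for radiation against control and from -0.0021 to -0.11 in the interaction.

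**Figure D4:**
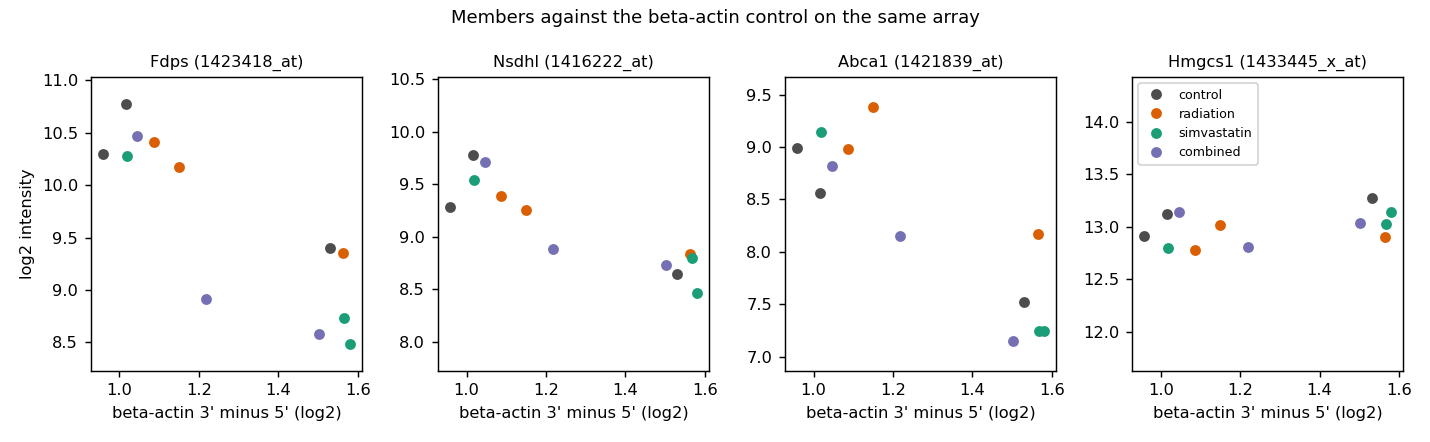
Log2 intensity of Fdps, Nsdhl, the second brightest probe set of Abca1 and Hmgcs1 against the log2 difference between 3′ and 5′ beta-actin probe sets on the same array; each point is 1 array, coloured by group, and the vertical axes span the same log2 range. The arrays form separate clusters at 0.96 to 1.22 and 1.50 to 1.58; Nsdhl is lower throughout the wide cluster and Hmgcs1 is level across both.

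Neighbouring pathways were followed through 3 further lists, in which limma likewise called no gene. Fatty acid synthesis, which SREBP-1 drives, gave medians of 0.22 for radiation against control, -0.06 for simvastatin against control and 0.37 for combined against radiation over its 15 genes, and 10 of them lay above 0 in the last, where 37.4% of all genes did and their median was -0.09. Acacb, a carboxylase that makes malonyl-CoA, gave 1.54 ± 0.58 there, and Scd2, a desaturase, gave -0.40 ± 0.14, both with an adjusted p of 0.835.

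The high values lay on a pair of arrays. Acacb read 9.76 and 8.83 on combined 1 and combined 2 but 7.42 on combined 3, against 7.22, 7.28 and 6.88 after radiation. Without combined 3 the median of the list was 0.77. Markers of brown fat, a tissue that makes fatty acids, were taken as the median deviation over the 4 of 5 genes measured. They were at 3.57 and 2.34 on combined 1 and 2 and at -1.84 on combined 3. Ucp1, the defining brown fat gene, read 12.6, 10.5 and 2.21 on these arrays and 12.9, 2.20 and 12.3 on the controls. On the controls brown fat markers were at 3.48, -2.61 and 2.13 and the fatty acid list at -0.26, -0.28 and 0.28. White fat markers, with 3 of 6 genes measured, were at 1.67, 2.06 and 0.40 in the combined group and at 2.04, -4.32 and 0.61 on the controls. The part of fat in the values was not tested.

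Of 13 measured genes of protein prenylation and other isoprenoid branches, 10 lay below 0 for combined against radiation, with a median of -0.24 against -0.09 over all genes, of which 37.4% lay above 0. Nus1, a subunit of the enzyme that makes dolichol, gave 0.60 ± 0.19 for radiation against control. It read 11.70, 11.69 and 11.59 after radiation against 10.76, 11.09 and 11.32 on the controls, with no overlap. Zmpste24, a protease that trims prenylated proteins, gave -0.43 ± 0.17 for combined against radiation.

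Of 17 measured genes of sterol storage, trafficking and LXR, 14 lay above 0 for radiation against control, with a median of 0.15, where 60.4% of all genes did and their median was 0.08. For combined against radiation 14 lay below 0, with a median of -0.18 against -0.09 over all genes, of which 37.4% lay above 0. Nr1h3, which encodes LXR alpha, read 8.30, 8.06 and 7.95 after radiation and 7.40, 7.69 and 6.94 in the combined group, a difference of -0.76 ± 0.37, adjusted p of 0.835. Ch25h, which makes an oxysterol that silences SREBP processing, gave 1.24 ± 0.63 for radiation against control. Control 1, at 5.62, lay far below the other controls at 7.52 and 7.97.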

How the data were processed

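Lung RNA from 12 arrays was analysed. The authors deposited log2 intensities per probe set; MAS5 and GCRMA are named in the submitters' processing notes, with versions and settings not given in the sources used here. Background correction moves low values most, so a floor on low values was tried. Of 45101 probe sets, 64 Affymetrix controls were left out, 34945 had 1 gene symbol, 932 several and 9160 none; 34741 matched RefSeq by Entrez identifier. Probe sets above the median of all values, 4.85, on at least 3 arrays were kept, giving 20073 probe sets and 11602 genes. Group means were fitted with limma 3.58.1 in R 4.3.3 (eBayes with a trend, Benjamini-Hochberg over all genes per comparison, called at adjusted p under 0.05), after checks on simulated data. The fit had 11 samples and 7 residual degrees of freedom; the number of arrays limits precision. The simvastatin arrays 1 and 3 were averaged. The 28 members, the other lists and the tests were chosen with earlier results of these data known. Named in every comparison are Hmgcs1, Sqle, Insig1, Srebf2, Abca1 and the 3 members of lowest p, and at most 2 genes of lowest p from each other list in a comparison; the other members named were added to cover the pathway. Alternatives changed scaling, filter, floor, probe set choice, weights, variance model, block, covariate and arrays.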

Additional observations from a re-analysis of the deposited data

How the results depend on the processing

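Of 47 differences of the members named by rule, none passed the threshold in the fit reported and 4 of 1222 did over all alternatives: with array weights, Pmvk at 1.34 and Abca1 at 0.59 for radiation against control and Lss at -0.94 and Insig2 at -0.39 for combined against radiation. Array weights raised the counts of called genes to 1241 and 1172 in these comparisons. Leaving out the 3 arrays against their labels called 9 genes for radiation against control and 2 for radiation averaged over both simvastatin states. Those 3 arrays were picked by Cdkn1a in these same data, so leaving them out favours differences by radiation. The number of arrays limits all of these results, and no value that changed sign had passed the threshold. The cause was not tested. In what follows, "averaged" means over both states of the other treatment.

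Median centring shifts every gene in a comparison by the same amount, by 0.27 for radiation against control and by -0.36 for combined against radiation, all genes included, so the members keep their place relative to the others. It moved the members' median to 0.35 for radiation against control, -0.63 for combined against radiation, -0.37 for averaged simvastatin and -0.36 for the interaction. The fatty acid median for combined against radiation became 0.01. For radiation against control Hmgcs1 became 0.076, Insig1 0.017 and Srebf2 0.19. For combined against radiation they became -0.27, -0.28 and -0.36. Averaged simvastatin gave Srebf2 -0.18. Averaged radiation gave Hmgcs1 0.023, Insig1 0.036 and Srebf2 0.0105. The interaction gave Hmgcs1 -0.11 and Sqle -0.28. Members whose groups lay apart downward then numbered 0 for radiation against control, 1 for simvastatin against control and 8 for combined against radiation, against 0.334%, 5.38% and 35.9% of all genes; the 8 are 29.6% of the members. Quantile normalization turned the sign of the Srebf2 interaction, at 0.0027.

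The mean of a gene's probe sets gave Srebf2 -0.15 and Abca1 -0.0445 for simvastatin against control, Srebf2 -0.057 for combined against radiation, Hmgcs1 0.034 and Srebf2 -0.11 for averaged simvastatin, and Srebf2 0.10 in the interaction. The probe set of highest variance gave -0.31, -0.082, -0.11, 0.59, -0.21 and 0.20 for the same results in that order. Array weights gave Sqle -0.10 for radiation against control, Srebf2 -0.083 for simvastatin against control, Insig1 -0.14 and Srebf2 -0.026 for combined against radiation, Srebf2 -0.055 for averaged simvastatin, Sqle -0.0024 for averaged radiation and Srebf2 0.057 in the interaction.

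Without the 3 arrays against their labels, simvastatin against control gave Hmgcs1 0.072, Sqle 0.067, Srebf2 -0.035 and Abca1 -0.080. Combined against radiation gave Srebf2 -0.0028, averaged simvastatin gave Hmgcs1 0.074 and Srebf2 -0.019, and the interaction gave Sqle -0.27 and Srebf2 0.032. With the beta-actin covariate Srebf2 was -0.0016 for simvastatin against control, -0.0006 for averaged simvastatin and 0.0020 in the interaction.

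Counting 12 arrays as 12 samples gave Srebf2 -0.025 for simvastatin against control, -0.0125 for averaged simvastatin and 0.025 in the interaction. Adding the replicate number as a block gave the same -0.025, -0.0125 and 0.025 and again 0 called genes in all 6 comparisons. The labels do not say that a number marks a shared batch, and not every same-numbered pair deviated together: the deviations of same-numbered arrays from their group means correlated between -0.26 and 0.41, 8 of 18 pairs were above 0.1, and 8 of 12 arrays correlated best with their own number, which is a hint from the data and not from the design. All 3 pairs of control with combined were above 0.1, between 0.29 and 0.41. The beta-actin covariate turned the fatty acid median for simvastatin against control from -0.058 to 0.012.

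Leaving out each array in turn moved the members' median from -0.087 (without control 1) to 0.16 for radiation against control and from -0.18 (without control 3) to 0.10 (without combined 1) in the interaction. The fatty acid median ran from 0.13 to 0.77 for combined against radiation. Without control 3, 1 gene was called for radiation against control, averaged radiation and the interaction, against 0 without any other array. The range was -0.22 to 0.20 for Sqle in radiation against control, -0.091 to 0.051 for Srebf2 and -0.077 to 0.16 for Abca1 in simvastatin against control, and -0.32 to 0.0074 for Sqle, -0.18 to 0.23 for Insig1 and -0.049 to 0.050 for Srebf2 in combined against radiation. Averaged simvastatin ran from -0.079 to 0.041 for Hmgcs1 and from -0.045 to 0.026 for Srebf2. Averaged radiation ran from -0.050 to 0.16 for Sqle and from -0.14 to 0.070 for Insig1. The interaction ran from -0.11 to 0.34 for Sqle and from -0.051 to 0.091 for Srebf2.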
